A study of Mus musculus with 12 samples.

Results

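Matrix metalloproteinases (Mmp), the secreted Adamts proteases, the Adamts-like proteins (Adamtsl) and the tissue inhibitors of metalloproteinases (Timp) were followed in RNA from mouse skin. Members were the rows of the gene count table whose symbol is 1 of these names followed by a digit and whose counts summed to at least 10 over the 12 libraries. Of 33539 genes in the table, 49 qualified, among them 21 Mmp, 19 Adamts, 5 Adamtsl and 4 Timp genes. Mmp20 with 4 counts and Mmp7 with 1 count carried a matching symbol and fell below the minimum. A filter on low counts over the whole table kept 18147 genes for testing, 45 of them members. Mmp1a, Mmp21, Mmp24 and Adamts13 did not pass it.

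The skin came from 3 groups: 4 libraries of IMQ-induced, Tcn2-deficient mice (Tcn2-/- IMQ), 5 libraries of IMQ-induced mice that the design text describes as wild-type (IMQ) and 3 libraries of wild-type controls. Imiquimod (IMQ) activates Toll-like receptors and gives a psoriasis-like inflammation of mouse skin, and Tcn2 encodes transcobalamin, the plasma carrier that delivers vitamin B12 to cells. Strain, age, the dose and duration of IMQ, any vehicle on the control skin and the way Tcn2 was deleted are not given in the labels used here. Nothing in the labels says whether libraries of a group came from separate animals, so p-values measure the spread between these libraries.

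Mmp proteins are zinc endopeptidases that are made as inactive precursors and cut collagens, laminins, elastin, cytokines and growth factor precursors once they are activated. Adamts proteases share the metalloproteinase fold but add thrombospondin repeats that bind them to the matrix, where they cut proteoglycans, trim procollagens or process single targets. Adamts-like proteins keep those repeats and lack the protease. Timps bind the active site of these enzymes and block it. In skin, fibroblasts, keratinocytes at a wound edge, neutrophils and macrophages each make a part of this set, and several of the genes are known to respond to interleukin 1 and to AP-1 transcription factors.

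Library totals were between 16182324 and 18503487 counts, and levels are given as CPM, the count of a gene scaled to the size of its library. Control replicate 1 and Tcn2-/- IMQ replicate 2 lay apart from the rest on principal component 1 (34.1% of variance) and had the largest shares of mitochondrially encoded counts, 10.3% and 8.08%. Each result below was recomputed without both. The summed level of 12 fibroblast markers was 9301 to 47108 CPM in Tcn2-/- IMQ skin, 9567 to 48876 CPM in IMQ skin and 1968 to 20103 CPM in control skin, and both of these libraries were the lowest of their group. Skeletal muscle markers, a list of 14 genes, summed to 9085 to 35004 CPM, 3159.6 to 7637 CPM and 12853 to 13613 CPM in the same order of groups, with no overlap between the IMQ-induced groups, and the titles carry the word muscle while the tissue label is skin. The part of muscle RNA in the results below was not tested. Keratinocyte markers, a list of 12 genes, were present in every library. They summed to 11785, 13295, 58830 and 49427 CPM in Tcn2-/- IMQ replicates 1 to 4. The sums were 24981 to 41773 CPM in IMQ skin and 8308 to 8996 CPM in control skin. The part of keratinocyte RNA in the results below was not tested. High counts of the female Xist transcript marked 3 libraries, control replicates 2 and 3 and IMQ replicate 1, and the other 9 held high counts of the Y-linked Ddx3y. Any fit without control replicate 1 therefore sets female controls against male Tcn2-/- IMQ libraries, and sex and group cannot be told apart in that contrast. Tcn2 itself stood at 5.58, 1.90, 5.43 and 4.14 CPM in Tcn2-/- IMQ skin, 90.2, 66.8, 136, 129.9 and 141 CPM in IMQ skin and 19.9, 75.8 and 85.8 CPM in control skin, so every deficient library lay below every other one (Tcn2-/- IMQ over IMQ, log2 change -4.72, SE 0.505, adjusted p = 0.00695; 0.0502 and 0.0776 as adjusted p without Tcn2-/- IMQ replicate 1 or 4). The Tcn2 call was also lost with the replicate number as a block, and its edgeR adjusted p reached 0.197 over all alternatives.

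Adamts4, a proteoglycan-cutting enzyme, averaged 19.0 ± 4.95 CPM (SD, n = 4) in Tcn2-/- IMQ skin and 24.7 ± 14.3 CPM (SD, n = 5) in IMQ skin, against 3.73 ± 0.566 CPM (SD, n = 3) in control skin, and it was the member called in both contrasts with control skin. Its relative Adamts15 also rose in Tcn2-/- IMQ skin, where the macrophage elastase Mmp12 and the leukocyte protease Mmp25 fell. In the edgeR quasi-likelihood test with Benjamini-Hochberg adjustment over all 18147 genes, called at an adjusted p below 0.05, IMQ skin differed from control skin in 1 of 45 members, Adamts4, which rose, where 1.23% of all genes were called, 0.694% as higher and 0.535% as lower. Tcn2-/- IMQ skin differed from control skin in 4 of 45 members, of which Adamts4 and Adamts15 rose and Mmp12 and Mmp25 fell, where 1.31% of all genes were called, 0.579% as higher and 0.733% as lower. Between Tcn2-/- IMQ and IMQ skin 0 of 45 members were called, where 0.0276% of all genes were, 0.00551% as higher and 0.0220% as lower. At an unadjusted p below 0.05 this last contrast held 5 members, Adamts19 and Adamtsl5 with positive and Mmp8, Mmp12 and Mmp25 with negative values, where 11.8% of all genes were below that level. DESeq2, run as another tool, called 4 of 47 members there, Adamts19 higher and Mmp8, Mmp12 and Mmp25 lower, where it called 2.75% of all genes. For IMQ over control it called 10 of 47 members, where it called 5.17% of all genes. These were Mmp12, lower, and Adamts4, Adamts5, Adamts7, Adamts15, Mmp3, Mmp8, Mmp10, Mmp11 and Timp1, higher. For Tcn2-/- IMQ over control it called 9 of 47, where it called 4.89% of all genes, namely Mmp12 and Mmp25, lower, and Adamts4, Adamts5, Adamts7, Adamts15, Mmp3, Mmp10 and Timp1, higher. An unadjusted p below 0.05 was reached by 15 of 45 members for IMQ over control, where 15.6% of all genes reached it, and by 13 of 45 for Tcn2-/- IMQ over control, where 12.8% did. The 3 contrasts share their libraries, so their values are not independent of each other.

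The median log2 change of the 45 members was 0.37 for IMQ over control, 0.07 for Tcn2-/- IMQ over IMQ and 0.48 for Tcn2-/- IMQ over control, against medians of -0.0040, 0.0082 and 0.011 over all genes tested. Positive values were held by 28, 24 and 34 of the 45 members, where 49.6%, 50.8% and 51.0% of all genes were positive. For 8 members every IMQ library lay above every control library (Adamts4, Adamts5, Adamts7, Adamts15, Mmp8, Mmp11, Mmp13 and Timp1), where this held for 6.76% of all genes, and for Mmp12 every IMQ library lay below, where this held for 7.42%. Every Tcn2-/- IMQ library lay above every control library for 7 members (Adamts1, Adamts4, Adamts5, Adamts7, Adamts15, Mmp3 and Timp1), with 4.68% of all genes, and below for Mmp12 and Mmp25, with 5.90%. Against IMQ skin, Adamtsl5 was the member higher in every Tcn2-/- IMQ library, with 1.71% of all genes, and Mmp8 and Mmp25 were lower in every one, with 3.17%.

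**Figure D1:**
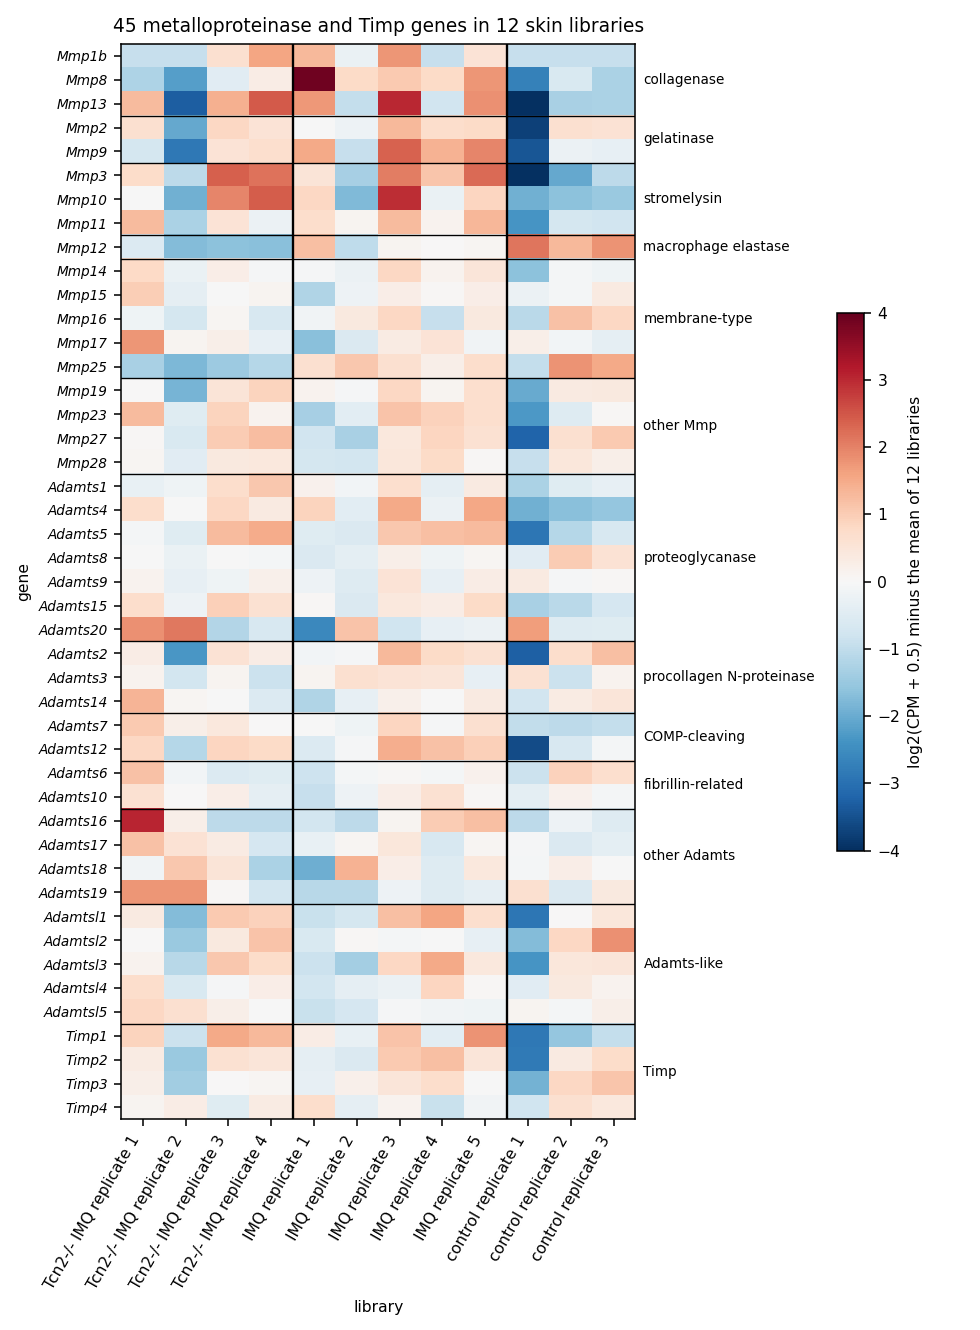
Level of the 45 tested members (rows, grouped by class) in the 12 libraries (columns, Tcn2-/- IMQ, IMQ, control), as log2(CPM + 0.5) minus the mean of the gene over all libraries; red is above and blue below that mean. Control replicate 1 and Tcn2-/- IMQ replicate 2 are pale or blue for most stromal genes, and Mmp12 is red in all 3 controls.

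Per length, Mmp2 and Timp2 were the most abundant members. Divided by exon length, the mean level over all libraries was 181 CPM per kilobase for Mmp2, the gelatinase of fibroblasts, 175 for Timp2, 88.7 for Mmp3, 72.5 for Mmp14, 35.5 for Adamts2, 21.7 for Adamts1 and 20.9 for Timp1. Mmp3 held 24.7% ± 11.5 (SD, n = 4) of the summed CPM per kilobase of all Mmp genes in Tcn2-/- IMQ skin, 19.5% ± 8.92 (SD, n = 5) in IMQ skin and 3.28% ± 2.45 (SD, n = 3) in control skin. The share of Mmp2 was 36.5% ± 7.87, 43.7% ± 6.44 and 48.6% ± 23.7 in the same order. The summed Mmp level per kilobase was 1.97 to 2.30 times the summed Timp level in Tcn2-/- IMQ skin, 1.27 to 2.46 times in IMQ skin and 1.22 to 1.84 times in control skin, so the IMQ and control ranges overlapped and the Tcn2-/- IMQ range lay above that of the controls.

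A run of 8 Mmp genes, the collagenases, stromelysins 1 and 2, the macrophage elastase Mmp12 and Mmp27, lies on chromosome 9, where the count table places them between Mmp13 at 9:7272514-7283331 and Mmp27 at 9:7571397-7581886 (GRCm39). Their promoters are shown because they include the 5 members with the largest fitted values for IMQ over control skin, and because genes of this cluster are textbook targets of AP-1, whose site reads TGANTCA. In the RefSeq promoter table (GRCm38.p6), which held 34 of the members, the 250 bases before each start were searched on both strands for TGANTCA, which is its own reverse complement apart from the middle base, and for the TATA box TATAAA. The motifs do not overlap each other. TGANTCA was found before 6 of the 34 members (17.6%), all 6 among the 8 of the cluster, against 6.75% of all 32851 promoters, and TATAAA before 8 of the 34 (23.5%), 5 of them in the cluster, against 12.4%. Both motifs stood before 5 of the 8 cluster genes and before 1.21% of all promoters. The 150 bases before the start follow, 5′ to 3′ on the strand of the gene, with TGANTCA and TATAAA in capitals. The coordinates are those of the printed bases, with the strand in brackets.

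Mmp13, chr9:7272364-7272513 (+): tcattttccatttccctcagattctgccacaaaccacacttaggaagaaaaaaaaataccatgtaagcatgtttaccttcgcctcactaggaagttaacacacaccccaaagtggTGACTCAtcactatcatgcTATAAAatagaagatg

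Mmp12, the second of its starts, chr9:7347224-7347373 (+): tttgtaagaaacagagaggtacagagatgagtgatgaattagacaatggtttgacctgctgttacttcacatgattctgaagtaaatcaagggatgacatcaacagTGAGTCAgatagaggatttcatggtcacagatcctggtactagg

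Mmp1b, chr9:7388027-7388176 (−): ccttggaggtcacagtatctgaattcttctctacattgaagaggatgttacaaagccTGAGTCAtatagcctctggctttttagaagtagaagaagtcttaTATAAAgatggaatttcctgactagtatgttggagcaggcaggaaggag

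Mmp3, chr9:7445672-7445821 (+): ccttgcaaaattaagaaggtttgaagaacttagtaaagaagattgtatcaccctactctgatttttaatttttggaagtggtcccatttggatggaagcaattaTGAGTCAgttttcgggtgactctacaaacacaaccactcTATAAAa

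Mmp1a, chr9:7463991-7464140 (+): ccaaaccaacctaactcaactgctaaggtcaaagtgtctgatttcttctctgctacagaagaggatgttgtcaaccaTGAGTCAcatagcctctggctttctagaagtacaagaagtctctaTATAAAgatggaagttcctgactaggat

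Mmp10, chr9:7502192-7502341 (+): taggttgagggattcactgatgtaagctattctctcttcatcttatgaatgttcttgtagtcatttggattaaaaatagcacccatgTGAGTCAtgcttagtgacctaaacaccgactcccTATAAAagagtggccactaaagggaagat

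Mmp8, chr9:7558279-7558428 (+): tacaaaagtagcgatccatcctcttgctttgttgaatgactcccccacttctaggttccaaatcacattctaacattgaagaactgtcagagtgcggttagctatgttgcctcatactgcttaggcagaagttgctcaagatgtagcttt

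Mmp27, chr9:7571246-7571395 (+): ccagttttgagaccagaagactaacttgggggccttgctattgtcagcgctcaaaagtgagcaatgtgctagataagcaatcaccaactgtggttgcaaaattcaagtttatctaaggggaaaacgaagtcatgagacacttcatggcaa

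The first base of TGANTCA lay 35 bases before the start in Mmp13, 44 in Mmp12, 46 in Mmp3, 63 in Mmp10, 73 in Mmp1a and 93 in Mmp1b. TATAAA lay downstream of it in each of these but Mmp12. Mmp8 and Mmp27 have neither motif in this window, and neither has the first start of Mmp12. The bases after the Mmp8 start and after the first Mmp12 start were not found in a GENCODE transcript of the gene, so these starts are uncertain. A match describes letters and not the binding of a factor.

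Stromelysins cut proteoglycans, laminin and fibronectin and activate other Mmp precursors. Mmp3, stromelysin 1, had 125, 35.7, 392 and 338 CPM in Tcn2-/- IMQ skin, 107, 29.4, 310.0, 162 and 364 CPM in IMQ skin and 0.879, 17.8 and 35.6 CPM in control skin, listed by replicate number here and throughout. Tcn2-/- IMQ libraries all lay above the controls, though replicate 2 only just, and IMQ replicate 2 fell within the control range. The changes did not pass the edgeR test, with log2 change 3.43, SE 1.17, adjusted p = 0.192 for IMQ over control and log2 change 3.62, SE 1.2, adjusted p = 0.188 for Tcn2-/- IMQ over control. Between Tcn2-/- IMQ and IMQ skin the log2 change was 0.19 with an SE of 0.907.

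Mmp10, stromelysin 2, a product of keratinocytes at wound edges, was read at 1.37, 0, 6.86 and 9.62 CPM in Tcn2-/- IMQ skin and at 2.85, 0.0586, 14.1, 1.09 and 2.94 CPM in IMQ skin, against 0, 0.112 and 0.170 CPM in control skin. Each group had a library at or near 0, so the groups overlapped (log2 change 5.38, SE 1.92, adjusted p = 0.208 for IMQ over control, from 5 control counts). Mmp11, stromelysin 3, which acts weakly on matrix and is typical of stromal fibroblasts, had 93.5, 15.8, 56.5 and 33.1 CPM in Tcn2-/- IMQ skin, 63.1, 41.7, 92.9, 43.0 and 97.9 CPM in IMQ skin and 7.08, 23.7 and 22.7 CPM in control skin. All 5 IMQ libraries exceeded the controls, and Tcn2-/- IMQ replicate 2 lay inside the control range (log2 change 1.93, SE 0.588, adjusted p = 0.142 for IMQ over control).

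Collagenases are the enzymes that cut intact fibrillar collagen. Mmp13, the main interstitial collagenase of rodents, had 25.2, 0.595, 28.0 and 57.7 CPM in Tcn2-/- IMQ skin, 34.8, 5.04, 85.7, 5.82 and 37.6 CPM in IMQ skin and 0.110, 3.81 and 3.91 CPM in control skin. IMQ libraries were all above the controls, some by little, and Tcn2-/- IMQ replicate 2 was within the control range (log2 change 3.69, SE 1.42, adjusted p = 0.240 for IMQ over control and log2 change 3.41, SE 1.42, adjusted p = 0.327 for Tcn2-/- IMQ over control). The rodent counterparts of human MMP1, Mmp1a and Mmp1b, had 0 counts in every control library: Mmp1b held 0, 0, 16 and 40 counts in Tcn2-/- IMQ skin and 32, 5, 45, 0 and 15 counts in IMQ skin, and Mmp1a held 1, 0, 8 and 9 counts and 6, 0, 21, 8 and 0 counts. Against a floor of 3 counts over the control group, Mmp1b was at least 13.4-fold higher in Tcn2-/- IMQ skin and at least 19.0-fold higher in IMQ skin, and Mmp1a at least 4.32-fold and 6.85-fold higher. Such bounds cover counting error only. Both genes are close copies of each other and Mmp1b overlaps Mmp12 on the other strand, so the split of reads between them is uncertain. Control libraries held the most Mmp12 and 0 counts of Mmp1b.

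Mmp8, the collagenase stored in neutrophil granules, had 1.19, 0.357, 2.41 and 4.37 CPM in Tcn2-/- IMQ skin, 58.0, 6.27, 7.62, 6.18 and 12.9 CPM in IMQ skin and 0.110, 2.08 and 1.13 CPM in control skin. Every IMQ library was above every library of the other groups, and IMQ replicate 1 was far above the rest. By edgeR neither difference passed, with log2 change -3.12, SE 0.977, adjusted p = 0.244 for Tcn2-/- IMQ over IMQ and log2 change 4.03, SE 1.17, adjusted p = 0.123 for IMQ over control, while DESeq2 called both (0.0121 and 6.14e-04 as adjusted p). With sex as a covariate edgeR called Mmp8 for IMQ over control (log2 change 5.51, adjusted p = 0.0226). With the replicate number as a block it did not (log2 change 3.35, adjusted p = 0.4995). Neutrophil markers, a list of 12 genes, summed to 274, 454, 955 and 1279.6 CPM in Tcn2-/- IMQ skin, 11563, 3841, 2426, 2907 and 3184 CPM in IMQ skin and 22.6, 45.1 and 91.2 CPM in control skin. Between 1 and 7 of the 12 were at 0 in a Tcn2-/- IMQ library, 0 or 1 in an IMQ library and 1 to 5 in a control library, and Ly6g was at 0 in all Tcn2-/- IMQ and all control libraries. The order of the group medians was the one seen for Mmp8. The Tcn2-/- IMQ and control libraries overlapped for Mmp8 and did not overlap for the marker sum. The part of neutrophil number in the Mmp8 result was not tested. In bulk skin fewer cells of a type and less RNA per cell cannot be told apart.

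**Figure D2:**
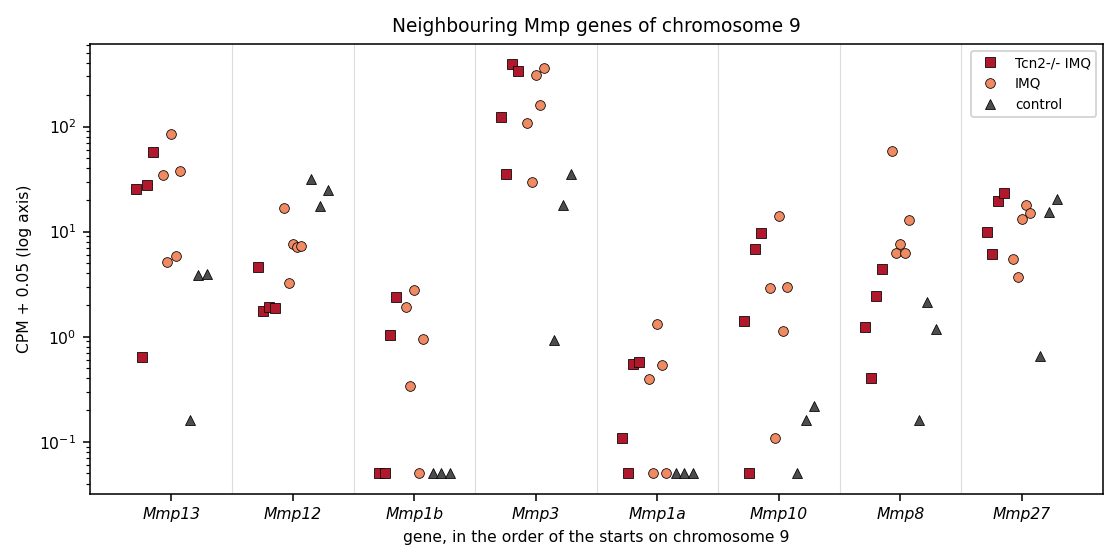
Level of the 8 neighbouring Mmp genes of chromosome 9 in each library, as CPM + 0.05 on a log axis, in the order of their starts; squares are Tcn2-/- IMQ, circles IMQ and triangles control. Mmp13, Mmp3, Mmp10 and Mmp8 reach their highest levels in IMQ-induced skin, Mmp12 is highest in control skin, and Mmp27 shows no separation of the groups.

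Mmp12, the macrophage elastase, was highest in control skin. It had 4.51, 1.73, 1.85 and 1.81 CPM in Tcn2-/- IMQ skin, 16.6, 3.16, 7.50, 7.03 and 7.31 CPM in IMQ skin and 31.8, 17.6 and 25.1 CPM in control skin. Every control library lay above every other library, and the Tcn2-/- IMQ and IMQ ranges overlapped only through Tcn2-/- IMQ replicate 1 and IMQ replicate 2. Mmp12 (ENSMUSG00000049723, 9:7344381-7369499) fell in Tcn2-/- IMQ skin relative to control skin (log2 change -3.32, SE 0.526, adjusted p = 0.0205; -2.97, adjusted p = 0.0448 without both libraries that stood apart). The call was lost without control replicate 2 or 3 (adjusted p = 0.0620 and 0.0899) or Tcn2-/- IMQ replicate 3 or 4 (0.0684 and 0.0659), and with sex as a covariate (-3.04, adjusted p = 0.0654). IMQ over control (log2 change -1.58, SE 0.467, adjusted p = 0.132) and Tcn2-/- IMQ over IMQ (log2 change -1.75, SE 0.468, adjusted p = 0.174) did not pass in edgeR, while DESeq2 called both lower (0.0324 and 0.0105 as adjusted p). Macrophage and monocyte markers summed to 1390.2, 359, 4216 and 3684 CPM in Tcn2-/- IMQ skin, 2543, 1968, 4935, 7224 and 4829 CPM in IMQ skin and 147, 2419.8 and 3701 CPM in control skin, with none of the 12 at 0. Control replicate 1, a library that stood apart, had the highest Mmp12 and the lowest macrophage sum of all libraries. The part of macrophage number in the Mmp12 result was not tested.

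Gelatinases cut denatured collagen and basement membrane. Mmp2 had 723, 112, 833 and 673 CPM in Tcn2-/- IMQ skin, 457, 406, 1131, 763 and 788 CPM in IMQ skin and 34.6, 722 and 690.0 CPM in control skin. The groups overlapped broadly, with control replicate 1 and Tcn2-/- IMQ replicate 2 as the low values. None of the changes passed, and the log2 change of Mmp2 for IMQ over control was 0.56 (SE 0.796) with all libraries and 0.01 without both. Mmp9, the gelatinase of neutrophils and inflamed epidermis, had 7.72, 1.37, 19.3 and 20.9 CPM in Tcn2-/- IMQ skin, 38.4, 6.68, 68.2, 35.1 and 52.2 CPM in IMQ skin and 0.769, 11.0 and 10.2 CPM in control skin. Of the IMQ libraries, 4 exceeded every library of the other groups and replicate 2 did not (log2 change 2.45, SE 0.997, adjusted p = 0.263 for IMQ over control and log2 change -1.70, SE 0.858, adjusted p = 0.468 for Tcn2-/- IMQ over IMQ).

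Membrane-type Mmps stay anchored at the cell surface, where Mmp14 activates the Mmp2 precursor. Mmp25, tethered by a lipid anchor and known from leukocytes, was low in every group: 0.534, 0.238, 0.432 and 0.641 CPM in Tcn2-/- IMQ skin, 3.49, 4.92, 3.45, 2.48 and 3.65 CPM in IMQ skin and 0.824, 8.36 and 6.75 CPM in control skin. Every Tcn2-/- IMQ library lay below every other library, and control replicate 1 was the low value of its group. Mmp25 (ENSMUSG00000023903, 17:23847285-23864251) fell in Tcn2-/- IMQ skin relative to control skin (log2 change -3.50, SE 0.637, adjusted p = 0.0267; -3.80, adjusted p = 0.00435 without both libraries that stood apart). This call was lost without control replicate 2 or 3 (adjusted p = 0.125 and 0.120), without Tcn2-/- IMQ replicate 3 or 4 (0.0933 and 0.0788), in a fit of those groups alone (0.0893) and with sex as a covariate (-2.22, adjusted p = 0.458). Against IMQ skin the difference missed the threshold with all libraries (log2 change -2.94, SE 0.594, adjusted p = 0.123) and passed it without control replicate 1 (adjusted p = 0.00687), without both (-2.73, adjusted p = 0.0171), in the fit of those groups alone (0.0150) and in DESeq2 (1.32e-04). It also missed the threshold with sex as a covariate (0.161) and with the replicate number as a block (0.407). With 1 library left out the adjusted p reached up to 0.289. The summed level of the neutrophil markers was higher in all Tcn2-/- IMQ libraries than in any control library, as given beside Mmp8. Of the 7 of these markers that were tested, 4 had positive and 3 negative values for Tcn2-/- IMQ over control. Only S100a8, higher, was called. The part of neutrophil number in the Mmp25 result was not tested. Mmp14 had 689, 333, 477 and 389 CPM in Tcn2-/- IMQ skin, 385, 336, 714, 439 and 561 CPM in IMQ skin and 129, 378 and 353 CPM in control skin (log2 change 0.77, SE 0.385, adjusted p = 0.362 for IMQ over control). Replicate 2 of each IMQ-induced group lay within the control range and the other libraries above it. Mmp17 stood at 17.6, 5.23, 5.74 and 3.79 CPM in Tcn2-/- IMQ skin, with replicate 1 high, against 1.16 to 7.33 CPM in IMQ skin and 3.69 to 5.77 CPM in control skin. Mmp15 had 14.4 to 37.4 CPM in Tcn2-/- IMQ skin, 7.80 to 22.5 CPM in IMQ skin and 15.8 to 24.1 CPM in control skin. Mmp16 had 3.69 to 6.73 CPM in Tcn2-/- IMQ skin, 3.15 to 11.7 CPM in IMQ skin and 2.75 to 14.9 CPM in control skin. Neither passed in any contrast, nor did Mmp19, Mmp23, Mmp27 and Mmp28, whose log2 changes over control ran between -0.15 and 1.27. Mmp19, a stromal and epidermal protease, had 7.02 to 50.2 CPM in Tcn2-/- IMQ skin, 25.9 to 48.1 CPM in IMQ skin and 6.21 to 35.7 CPM in control skin. Mmp28, epilysin of keratinocytes, had 7.20 to 13.8 CPM in Tcn2-/- IMQ skin, 5.80 to 17.5 CPM in IMQ skin and 5.05 to 14.0 CPM in control skin. Mmp23, a protease with a cysteine array, had 10.1 to 34.8 CPM in Tcn2-/- IMQ skin, 5.41 to 31.9 CPM in IMQ skin and 2.53 to 14.9 CPM in control skin. Mmp27, a neighbour of Mmp8, had 6.13 to 23.1 CPM in Tcn2-/- IMQ skin, 3.63 to 17.7 CPM in IMQ skin and 0.604 to 20.5 CPM in control skin. Mmp21 and Mmp24, which were not tested, stayed at or below 0.297 and 0.408 CPM in every library.

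**Figure D3:**
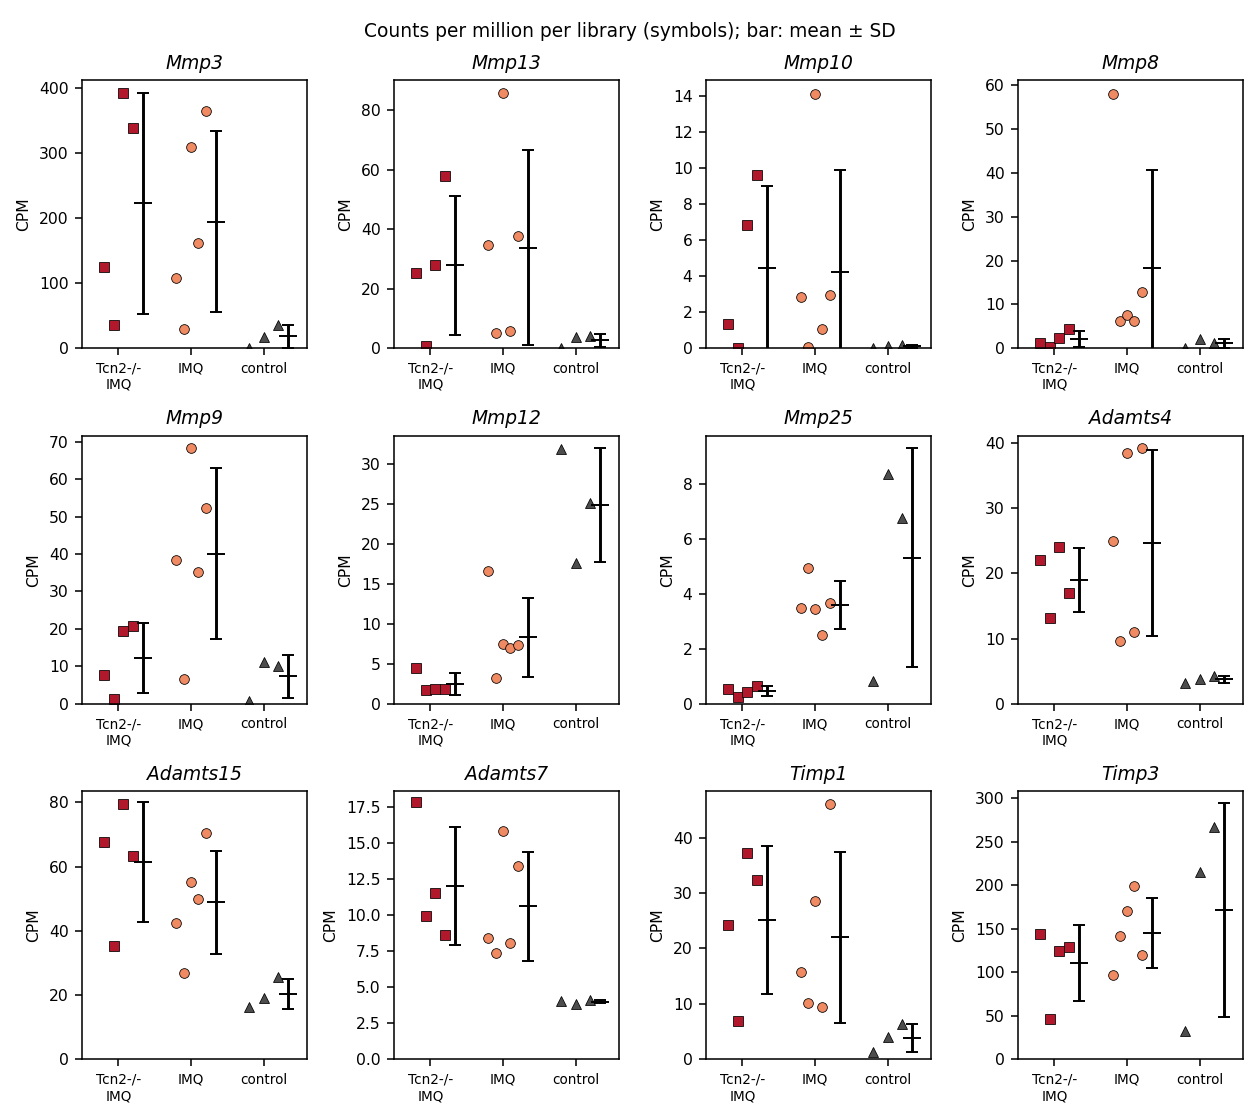
CPM of 12 members in every library, with the mean and SD beside the symbols; squares are Tcn2-/- IMQ, circles IMQ and triangles control, and each axis starts at 0. For Adamts4, Adamts7, Adamts15 and Timp1 every control library lies below every IMQ-induced library, for Adamts15 and Timp1 by little. Mmp25 is below 1 CPM in all Tcn2-/- IMQ libraries, and Timp3 overlaps in all groups.

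The Adamts proteoglycanases cut aggrecan and versican. Adamts4, aggrecanase 1, had 22, 13.1, 24 and 17.0 CPM in Tcn2-/- IMQ skin, 25.0, 9.66, 38.4, 11.1 and 39.3 CPM in IMQ skin and 3.13, 3.81 and 4.25 CPM in control skin. The controls were close together, and every library of both IMQ-induced groups lay above them, while the IMQ-induced groups overlapped. Adamts4 (ENSMUSG00000006403, 1:171077990-171088206) rose in IMQ skin (log2 change 2.72, SE 0.504, adjusted p = 0.0316) and in Tcn2-/- IMQ skin (log2 change 2.35, SE 0.506, adjusted p = 0.0475) relative to control skin, and Tcn2-/- IMQ over IMQ was -0.38 (adjusted p = 0.741). Without both libraries that stood apart the changes were 2.61, adjusted p = 0.0824 and 2.38, adjusted p = 0.0885, so neither call held. The IMQ call was also lost without control replicate 1, 2 or 3 (adjusted p = 0.0896, 0.158 and 0.144) or IMQ replicate 1, 3 or 5 (0.0568, 0.0702 and 0.0645). With sex as a covariate both calls were lost (0.0578 for IMQ and 0.211 for Tcn2-/- IMQ over control). The Tcn2-/- IMQ call was lost without each of 9 of the 12 libraries, control replicates 1, 2 and 3 (0.0865, 0.202 and 0.184), IMQ replicates 1, 3 and 5 (0.0629, 0.0527 and 0.0523) and Tcn2-/- IMQ replicates 1, 3 and 4 (0.0747, 0.123 and 0.101).

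Adamts15, which cuts versican, had 67.5, 35.2, 79.5 and 63.2 CPM in Tcn2-/- IMQ skin, 42.4, 26.9, 55.1, 49.9 and 70.4 CPM in IMQ skin and 16.4, 19.1 and 25.6 CPM in control skin. No control library reached the lowest library of either other group. Adamts15 (ENSMUSG00000033453, 9:30810451-30833748) rose in Tcn2-/- IMQ skin relative to control skin (log2 change 1.59, SE 0.344, adjusted p = 0.0477; 1.65, adjusted p = 0.0474 without both libraries that stood apart), and IMQ over control was 1.27 (adjusted p = 0.0911). The call was lost without 10 of the 12 libraries in turn: control replicates 1, 2 and 3 (adjusted p = 0.0901, 0.210 and 0.135), IMQ replicates 1, 3, 4 and 5 (0.0602, 0.0686, 0.0663 and 0.0507) and Tcn2-/- IMQ replicates 1, 3 and 4 (0.0769, 0.129 and 0.115). Its log2 change stayed between 1.44 and 1.79 in those fits. The call was also lost in a fit of those groups alone (adjusted p = 0.0725) and with sex as a covariate (0.252).

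Adamts5, aggrecanase 2, had 69.7, 52.0, 176 and 206 CPM in Tcn2-/- IMQ skin, 51.6, 49.0, 155, 170.2 and 176 CPM in IMQ skin and 9.39, 32.5 and 47.0 CPM in control skin. All IMQ-induced libraries lay above all controls, IMQ replicates 1 and 2 and Tcn2-/- IMQ replicate 2 by little, and the changes did not pass in edgeR (log2 change 2.02, SE 0.677, adjusted p = 0.183 for IMQ over control and log2 change 2.09, SE 0.696, adjusted p = 0.190 for Tcn2-/- IMQ over control). DESeq2 called both (0.0250 and 0.0273 as adjusted p). Adamts1, which is induced by inflammation and also cuts versican, averaged 144 ± 66.5 CPM (SD, n = 4) in Tcn2-/- IMQ skin and 120.2 ± 33.6 CPM (SD, n = 5) in IMQ skin, against 67.4 ± 20.9 CPM (SD, n = 3) in control skin. Its Tcn2-/- IMQ libraries all exceeded the controls and IMQ replicate 4 did not, and no contrast passed. Adamts9, a further versican-cutting member, averaged 29.3 ± 5.14 CPM (SD, n = 4), 30.0 ± 9.76 CPM (SD, n = 5) and 32.5 ± 4.96 CPM (SD, n = 3) in the same order of groups, without a call. Adamts8 was highest in control replicates 2 and 3, at 1.37, 1.07, 1.36 and 1.28 CPM in Tcn2-/- IMQ skin, 0.757, 0.937, 1.69, 1.15 and 1.5 CPM in IMQ skin and 0.879, 3.31 and 2.33 CPM in control skin, without a call (log2 change -0.84, SE 0.420, adjusted p = 0.359 for IMQ over control).

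Adamts7 and Adamts12 cut the cartilage oligomeric matrix protein. Adamts7 had 17.9, 9.93, 11.5 and 8.63 CPM in Tcn2-/- IMQ skin, 8.38, 7.38, 15.9, 8.06 and 13.4 CPM in IMQ skin and 4.01, 3.87 and 4.08 CPM in control skin. The 3 controls were nearly equal, and all 9 IMQ-induced libraries stood above them, yet neither change passed in edgeR, at log2 change 1.41, SE 0.338, adjusted p = 0.0692 for IMQ over control and log2 change 1.59, SE 0.350, adjusted p = 0.0513 for Tcn2-/- IMQ over control. DESeq2 called both (0.00177 and 5.53e-04 as adjusted p). Adamts7 overlaps Tbc1d2b, and its reads may be split with it. Adamts12 had 93.6, 23.7, 96.6 and 89.1 CPM in Tcn2-/- IMQ skin, 35.6, 50.7, 144, 118 and 102 CPM in IMQ skin and 3.95, 33.8 and 49.8 CPM in control skin. The groups overlapped, and in each group the library with the least fibroblast marker RNA was the lowest (log2 change 1.63, SE 0.734, adjusted p = 0.312 for IMQ over control).

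The procollagen N-proteinases Adamts2, Adamts3 and Adamts14 remove the amino-terminal propeptide of fibrillar procollagens. Adamts2 had 312, 50.0, 376 and 307 CPM in Tcn2-/- IMQ skin, 232, 242, 626, 432 and 384 CPM in IMQ skin and 25.7, 415 and 576 CPM in control skin. Both libraries that stood apart were far below the rest, and the remaining controls lay within the range of the IMQ-induced groups. Adamts14 had 9.03 to 35.0 CPM in Tcn2-/- IMQ skin, 5.47 to 17.1 CPM in IMQ skin and 7.69 to 18.9 CPM in control skin, and Adamts3 stayed at or below 1.41 CPM in every library. None of the 3 was called in any contrast.

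Among the remaining Adamts genes no change passed. Adamts19, an orphan protease, had 4.04, 3.99, 0.865 and 0.291 CPM in Tcn2-/- IMQ skin, 0.116, 0.117, 0.665, 0.424 and 0.539 CPM in IMQ skin and 1.59, 0.393 and 1.25 CPM in control skin. Tcn2-/- IMQ replicates 1 and 2 were high and replicate 4 was within the IMQ range, so the groups overlapped (log2 change 2.6, SE 0.790, adjusted p = 0.231 for Tcn2-/- IMQ over IMQ), while DESeq2 called it (0.0368). Adamts20, a relative of Adamts9 known in the mouse for belt-like coat colour patches, had 18.7, 22.6, 1.91 and 2.97 CPM in Tcn2-/- IMQ skin, 0.407, 11.3, 2.6, 3.76 and 4.07 CPM in IMQ skin and 16.7, 3.31 and 3.35 CPM in control skin. Libraries within a group differed more than the groups did. Adamts17 was not called (log2 change 0.57, SE 0.387, adjusted p = 0.586 for Tcn2-/- IMQ over IMQ), and Adamts6, Adamts10, Adamts16 and Adamts18 overlapped in all groups. Adamts10, which acts on fibrillin microfibrils, had 21.2 to 42.4 CPM in Tcn2-/- IMQ skin, 14.2 to 42.0 CPM in IMQ skin and 20.8 to 31.0 CPM in control skin. Adamts6 had 3.58 to 13.1 CPM in Tcn2-/- IMQ skin, 2.91 to 6.35 CPM in IMQ skin and 2.80 to 10.9 CPM in control skin. Adamts16 had 0 to 8.01 CPM in Tcn2-/- IMQ skin, 0 to 1.86 CPM in IMQ skin and 0 to 0.393 CPM in control skin. Adamts18 had 2.21 to 13.1 CPM in Tcn2-/- IMQ skin, 1.16 to 16.6 CPM in IMQ skin and 5.66 to 7.24 CPM in control skin. Adamts13, which cuts von Willebrand factor and was not tested, stayed at or below 0.833 CPM.

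Adamtsl5, 1 of the 5 Adamts-like genes, had 72.9, 63.8, 48.2 and 40.1 CPM in Tcn2-/- IMQ skin, 21.5, 25.4, 39.7, 36.8 and 36.2 CPM in IMQ skin and 43.8, 38.3 and 47.8 CPM in control skin. Every Tcn2-/- IMQ library lay above every IMQ library, the nearest by less than 1 CPM, and the controls lay between or among them. The difference did not pass, at log2 change 0.82, SE 0.225, adjusted p = 0.186 for Tcn2-/- IMQ over IMQ by edgeR and an adjusted p of 0.0505 by DESeq2. Adamtsl2, which binds latent TGF-beta binding protein, had 4.45, 1.25, 5.99 and 10.4 CPM in Tcn2-/- IMQ skin, 2.74, 4.57, 4.23, 4.36 and 3.47 CPM in IMQ skin and 0.989, 8.36 and 17.1 CPM in control skin, where control replicates 2 and 3 and replicate 1 lay on opposite sides of the IMQ range. Adamtsl1, Adamtsl3 and Adamtsl4 were not called. Adamtsl4, which binds fibrillin, had 17.0 to 43.1 CPM in Tcn2-/- IMQ skin, 15.4 to 47.7 CPM in IMQ skin and 19.1 to 34.3 CPM in control skin. Adamtsl1 had 5.23 to 38.7 CPM in Tcn2-/- IMQ skin, 9.72 to 56.5 CPM in IMQ skin and 2.09 to 25.8 CPM in control skin. Adamtsl3 had 1.19 to 7.23 CPM in Tcn2-/- IMQ skin, 0.937 to 9.996 CPM in IMQ skin and 0.220 to 4.65 CPM in control skin.

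Timp1, the Timp that inflammation induces, had 24.3, 6.90, 37.2 and 32.3 CPM in Tcn2-/- IMQ skin, 15.7, 10.2, 28.5, 9.39 and 46.1 CPM in IMQ skin and 1.32, 4.09 and 6.35 CPM in control skin. Every IMQ-induced library lay above every control, and the IMQ-induced groups overlapped. The changes were log2 change 2.49, SE 0.730, adjusted p = 0.129 for IMQ over control and log2 change 2.68, SE 0.752, adjusted p = 0.113 for Tcn2-/- IMQ over control by edgeR, so neither passed, while DESeq2 called both (0.00440 and 0.00268 as adjusted p). Timp1 overlaps the X-linked gene Syn1 on the other strand, and Syn1 had at most 2.82 CPM in any library. Timp2, which both inhibits Mmp2 and helps Mmp14 to activate it, had 691, 197, 836 and 776 CPM in Tcn2-/- IMQ skin, 433, 368, 1132, 1267 and 773 CPM in IMQ skin and 77.3, 714 and 908 CPM in control skin. Timp3, the matrix-bound inhibitor that also blocks Adamts4 and Adamts5, had 144, 46.6, 124 and 129 CPM in Tcn2-/- IMQ skin, 96.4, 142, 170.4, 199 and 120.0 CPM in IMQ skin and 32.5, 215 and 267 CPM in control skin. Both were lowest in control replicate 1 and Tcn2-/- IMQ replicate 2. For Timp3 control replicates 2 and 3 lay above every IMQ-induced library, so the controls overlapped the other groups only through replicate 1. Timp3 was the Timp with negative values in all contrasts, -0.24, -0.39 and -0.63 for IMQ over control, Tcn2-/- IMQ over IMQ and Tcn2-/- IMQ over control, of which none passed. With sex as a covariate the first turned to 0.57 and the last to 0.27, and without control replicate 3 the first was 0.23. Timp4 averaged 11.1 ± 2.71 CPM (SD, n = 4), 10.3 ± 4.49 CPM (SD, n = 5) and 12 ± 5.55 CPM (SD, n = 3) in the 3 groups.

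**Figure D4:**
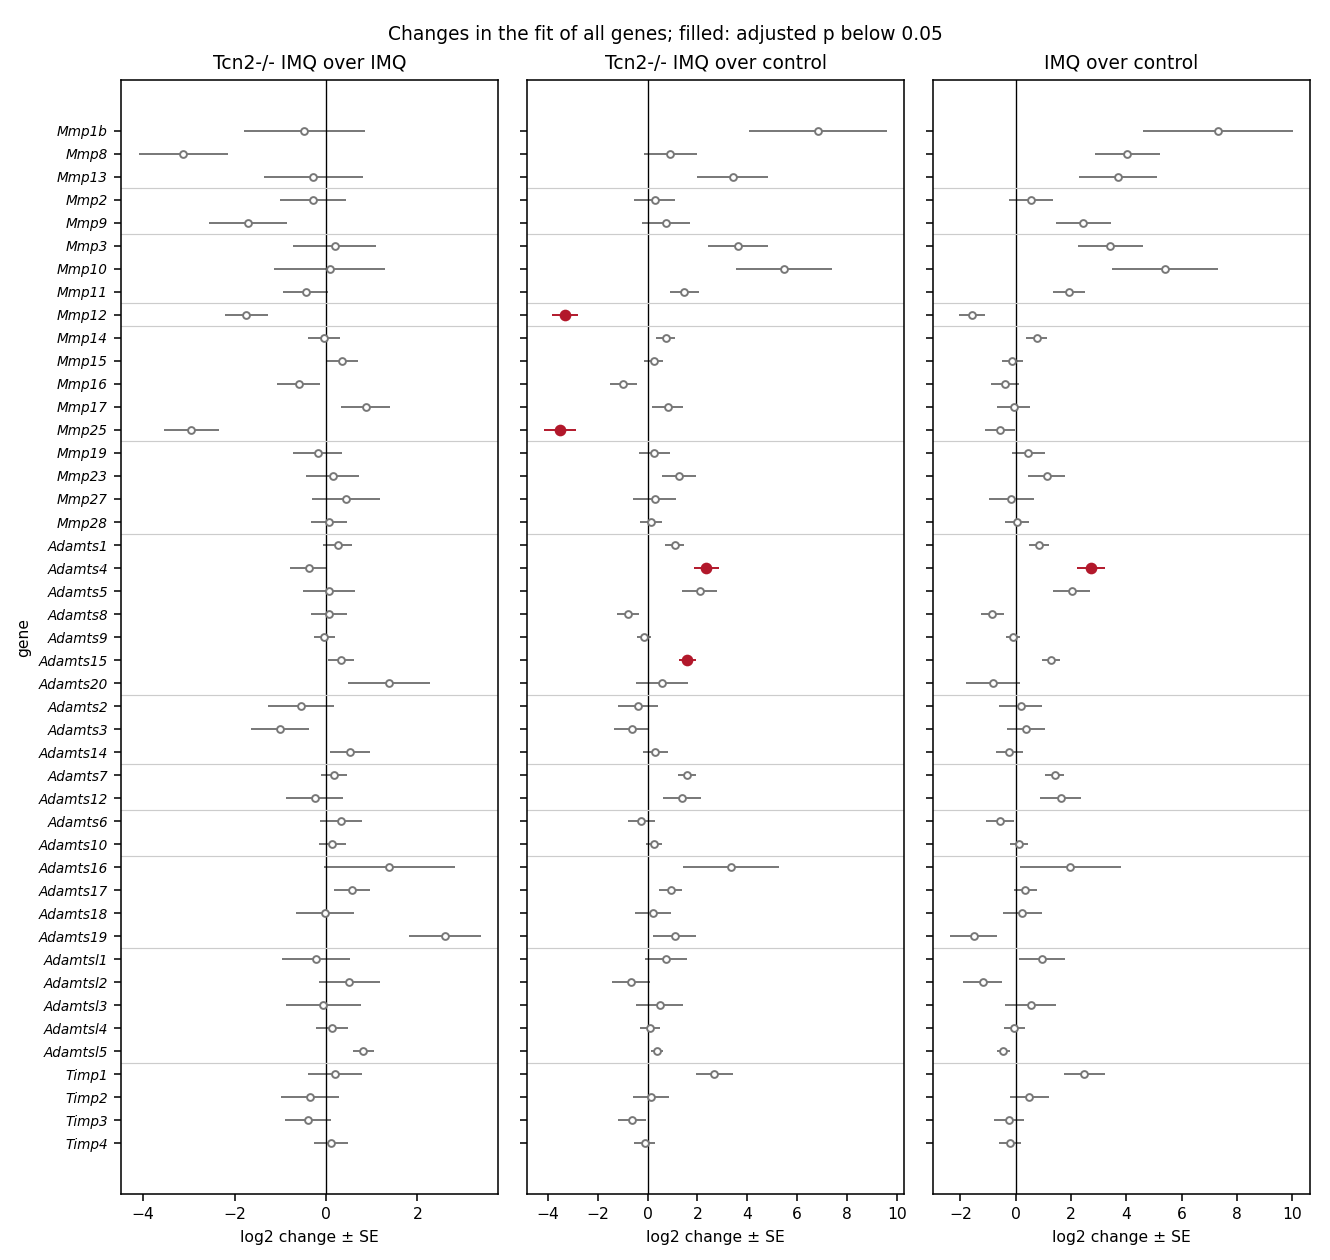
Log2 change ± SE of the 45 tested members in the edgeR fit of all genes, for Tcn2-/- IMQ over IMQ, Tcn2-/- IMQ over control and IMQ over control; filled red points have an adjusted p below 0.05. Points right of 0 are higher in the group named first, and the changes of Mmp1b over control are fitted values against 0 counts and depend on the prior count of the fit.

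The members shared their low libraries. Control replicate 1 held the lowest level of its group for 36 of 45 members, where it did so for 47.1% of all genes, and Tcn2-/- IMQ replicate 2 for 30 of 45, where it did so for 33.6%. Mmp2, Adamts2, Adamts5, Adamts12, Timp2 and Timp3 were among those lowest in both. Without both libraries edgeR called 0 of the members for IMQ over control, where it called 1.15% of all genes and 18 members had an unadjusted p below 0.05, as did 15.5% of all genes. It called 1 (Mmp25, lower) for Tcn2-/- IMQ over IMQ, where 0.275% were, and 3 (Adamts15 higher, Mmp12 and Mmp25 lower) for Tcn2-/- IMQ over control, where 2.13% were. The controls left in that fit were female and the Tcn2-/- IMQ libraries male, so sex and group cannot be told apart for Tcn2-/- IMQ over control. The 12 fibroblast markers were positive for IMQ over control in 12 of 12 cases and for Tcn2-/- IMQ over control in 12 of 12, with medians of 0.95 and 0.85 and no call, and the part of fibroblast number in the levels of these genes was not tested.

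**Figure D5:**
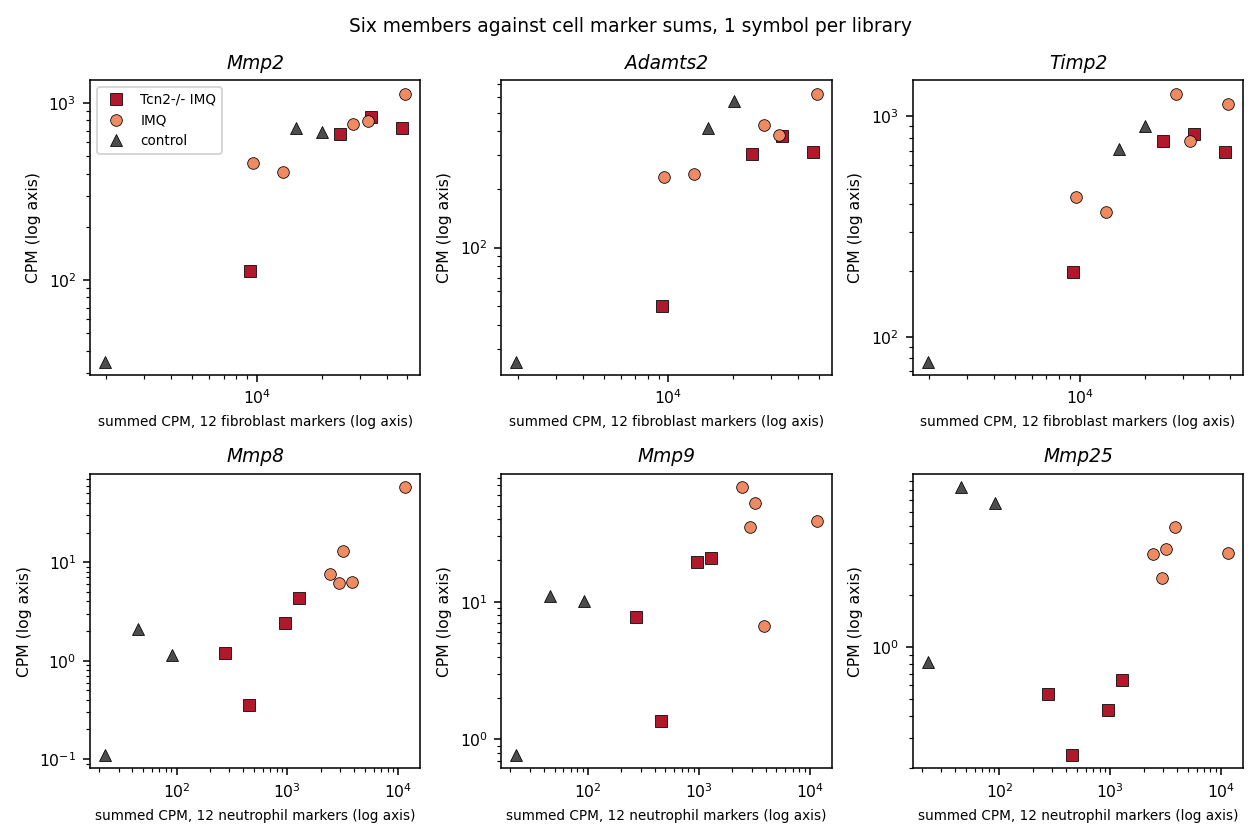
Level of 6 members (CPM, log axis) against the summed CPM of 12 fibroblast markers (upper row, Mmp2, Adamts2 and Timp2) or 12 neutrophil markers (lower row, Mmp8, Mmp9 and Mmp25), 1 symbol per library, log axes. Control replicate 1, at a fibroblast sum of 1968 CPM, lies at the lower left of the upper row. The Tcn2-/- IMQ squares lie lowest for Mmp25, and their neutrophil sums lie between those of the control and IMQ libraries.

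The genes that act on these proteases were read from lists of partners. Of all genes, 15.6% had an unadjusted p below 0.05 by edgeR for IMQ over control, and DESeq2 called 5.17%. For Tcn2-/- IMQ over IMQ these shares were 11.8% and 2.75%, and for Tcn2-/- IMQ over control 12.8% and 4.89%. The counts of each list below stand beside these shares. Of 16 activators and surface receptors tested, which include the plasminogen activators and furin, edgeR called 0 for IMQ over control (median log2 change 0.53) and for Tcn2-/- IMQ over IMQ, and 1, lower, for Tcn2-/- IMQ over control (0.36). At an unadjusted p below 0.05 the first 2 of these contrasts held 5 and 2 of the genes, and DESeq2 called 2 (Plau and Plaur, higher) and 1 (Klk1, lower). The edgeR call was Klk1, tissue kallikrein, with 1 count over all 4 Tcn2-/- IMQ libraries and 6310 counts over the 3 controls (adjusted p = 0.0248). IMQ skin held 259 Klk1 counts over 5 libraries, and IMQ over control was -5.28 (SE 1.31, adjusted p = 0.0772). Klk1 is abundant in glands, and the call was lost without control replicate 2 or 3 or Tcn2-/- IMQ replicate 1, 3 or 4 (adjusted p of up to 0.108). It was also lost without both libraries that stood apart. Inhibitors other than Timps, 9 of them tested, had 0 calls by edgeR in each contrast, with medians of -0.49 for IMQ over control and 0.38 for Tcn2-/- IMQ over IMQ. An unadjusted p below 0.05 was held by 5 of them for IMQ over control, where DESeq2 called 2 (Tfpi2 higher and Rarres1 lower), by 1 for Tcn2-/- IMQ over IMQ and by 0 for Tcn2-/- IMQ over control, where DESeq2 called 0. Adam and astacin proteases had positive values for IMQ over control in 12 of 12 genes (median 0.63) and negative values for Tcn2-/- IMQ over IMQ in 11 of 12 (median -0.32), with 0 calls by edgeR or DESeq2 in each contrast. An unadjusted p below 0.05 was held by 1 of them for IMQ over control, 2 for Tcn2-/- IMQ over IMQ and 1 for Tcn2-/- IMQ over control.

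Matrix substrates had a median of 1.16 for IMQ over control, -0.0083 for Tcn2-/- IMQ over IMQ and 1.0 for Tcn2-/- IMQ over control over 23 genes. For IMQ over control edgeR called 0 of them, with 9 at an unadjusted p below 0.05, where 15.6% of all genes were. DESeq2 called 3 there, where it called 5.17% of all genes. For Tcn2-/- IMQ over IMQ both tools called 0, with 0 at that unadjusted level by edgeR, where 11.8% of all genes were. For Tcn2-/- IMQ over control 1 gene passed. This was Tnc, tenascin C of wound matrix, which rose in Tcn2-/- IMQ skin, at 566, 34.2, 351 and 544 CPM in Tcn2-/- IMQ skin, 240.2, 144, 311, 51.7 and 476 CPM in IMQ skin and 8.57, 26.5 and 12.7 CPM in control skin. All IMQ-induced libraries were above all controls (log2 change 4.55, SE 0.994, adjusted p = 0.0492 for Tcn2-/- IMQ over control), and the call was lost without any control replicate, without IMQ replicate 1, 3 or 5 or without Tcn2-/- IMQ replicate 1, 3 or 4, at an adjusted p of up to 0.215. Over all alternatives the adjusted p of Tnc reached 0.249. Of 19 cytokines and transcription factors known to induce Mmp genes, 18 had a positive value for IMQ over control (median 0.95) and 17 a negative value for Tcn2-/- IMQ over IMQ (median -0.81). Of these edgeR called 1, higher, for IMQ over control, 1, lower, for Tcn2-/- IMQ over IMQ, and 0 for Tcn2-/- IMQ over control. For IMQ over control 8 had an unadjusted p below 0.05, all higher, where 15.6% of all genes did. DESeq2 called 4 of 20 there, Areg, Hbegf, Il17f and Il1b, all higher. For Tcn2-/- IMQ over IMQ 10 reached that level, all lower, where 11.8% of all genes did. DESeq2 called 3 of 20, Il17f, Il1b and Tnf, all lower. For Tcn2-/- IMQ over control 3 reached it, where 12.8% of all genes did, and DESeq2 called 2. Hbegf, a keratinocyte growth factor of the EGF family, rose in IMQ skin, at 9.97, 7.14, 42.2 and 41.4 CPM in Tcn2-/- IMQ skin, 94.3, 48.8, 106, 35.1 and 51.0 CPM in IMQ skin and 7.36, 6.17 and 6.24 CPM in control skin (log2 change 3.35, SE 0.659, adjusted p = 0.0360 for IMQ over control, lost without any control replicate or IMQ replicate 1, 3, 4 or 5, adjusted p of up to 0.172). Il1b, interleukin 1 beta, fell in Tcn2-/- IMQ skin, at 2.73, 0.833, 3.52 and 3.26 CPM in Tcn2-/- IMQ skin against 273, 64.4, 53.1, 57.8 and 76.9 CPM in IMQ skin and 4.34, 13.3 and 18.5 CPM in control skin (log2 change -5.34, SE 0.730, adjusted p = 0.0349, lost without control replicate 2 or 3, IMQ replicate 2, 3, 4 or 5 or any Tcn2-/- IMQ replicate, adjusted p of up to 0.173). The Il1b call was also lost with the replicate number as a block, where no gene was called. Over all alternatives the adjusted p of Il1b reached 0.322. Side by side with Il1b, Mmp3 and Mmp13, which this cytokine is known to induce, had log2 changes of 0.19 and -0.28 for Tcn2-/- IMQ over IMQ, with SEs of 0.907 and 1.08. Mmp8 and Mmp9 had -3.12 and -1.70 there. Of the 18 Mmp genes tested, 7 had positive and 11 negative values in that contrast, and edgeR called none. The part of Il1b in these levels was not tested.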

How the data were processed

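RNA of 12 skin libraries was measured by sequencing. Per the labels' protocols, polyadenylated RNA was captured from total RNA with oligo(dT) beads, fragmented, primed with random hexamers and amplified by PCR, so degraded RNA and PCR copies can bias the counts. The authors deposited raw integer counts for each gene, and the build was GRCm39 per the submitters' processing notes. No source used here names the aligner, the counter or the use of strand, so reads of overlapping genes, as 20 of the 49 members are, and of close paralogs may be assigned to the wrong gene. Groups and replicate numbers came from the titles, and 0 columns were left unmapped. Of the table's rows, 201 have no symbol.

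These counts were tested with edgeR 4.0.16 under R 4.3.3: filterByExpr over the 3 groups, TMM scaling (factors 0.927 to 1.12), and 1 quasi-likelihood fit (glmQLFit and glmQLFTest, 2-sided) of all 12 libraries with a mean per group, with Benjamini-Hochberg adjustment over 18147 genes. The common biological coefficient of variation was 0.463. CPM were computed from the deposited counts with TMM factors, and values under 1 CPM rest on few reads. Levels per kilobase used exon lengths of GENCODE M21 (GRCm38) for all 49 members. Promoters came from RefSeq (GRCm38.p6). The alternatives were DESeq2 1.42.0 (called at an adjusted p below 0.05 too), RLE factors, no filter or at least 1 CPM in 3 libraries, only the groups compared, the replicate number as a block, sex as a covariate, leaving out both libraries that stood apart, and leaving out each library. The fit was tested on simulated counts.

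The members and the lists of partners and markers were chosen with earlier results of these data known. Named are members called in any contrast, the 5 with the smallest p per contrast and direction, the Timps, the 5 highest in CPM and members at 0 in a whole group. Mmp10, Mmp11, Mmp13, Adamts1, Adamts5, Adamts6, Adamts9, Adamts10, Adamts12, Adamts14, Adamts16, Adamts18, Adamtsl1, Adamtsl3, Adamtsl4, Mmp15, Mmp19, Mmp23, Mmp27 and Mmp28 are named besides, to account for every member, after their values were seen.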

Additional observations from a re-analysis of the deposited data

Results flagged for a closer look

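In 3 of 52 groups of 4 or 5 libraries examined, 1 library stood far from the others, where chance gives about 1 in 20. Mmp8 had 58.0 CPM in IMQ replicate 1, against 6.18 to 12.9 CPM in the other IMQ libraries. This library also had the highest neutrophil marker sum, 11563 CPM, and was the only IMQ library with high Xist counts. Mmp12 had 4.51 CPM in Tcn2-/- IMQ replicate 1, against 1.73 to 1.85 CPM in the other Tcn2-/- IMQ libraries, all below every control library. Mmp17, a membrane-type Mmp, had 17.6 CPM in Tcn2-/- IMQ replicate 1, against 3.79 to 5.74 CPM in the rest of that group. This library had the highest sums of skeletal muscle and fibroblast markers of its group, 35004 and 47108 CPM, and their part in the Mmp12 and Mmp17 levels was not tested.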

How the results depend on the processing

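Calls moved with the settings, and every change named as called over control kept its direction in each fit. All genes called for IMQ over control numbered 223, and 1095 by DESeq2, 541 with only those groups, 46 with the replicate block, 143 with sex as a covariate and 8 to 397 with 1 library left out. Members called there numbered 1, and 10 by DESeq2, 0 with the replicate block, 1 with sex (Mmp8, in place of Adamts4), 0 without both libraries that stood apart and 0 to 3 with 1 library left out. For Tcn2-/- IMQ over IMQ all genes called numbered 5, and 583 by DESeq2, 17 with no filter, 42 with only those groups, 0 with the replicate block, 51 without both and 1 to 95 with 1 library left out, and members numbered 0, and 4 by DESeq2, 1 with only those groups, 1 without both and 0 to 1 with 1 left out. For Tcn2-/- IMQ over control all genes called numbered 238, and 1037 by DESeq2, 102 with only those groups, 20 with the replicate block, 27 with sex, 396 without both and 3 to 428 with 1 library left out, and members numbered 4, and 9 by DESeq2, 2 with only those groups, 1 with the block (Mmp12), 0 with sex and 0 to 5 with 1 left out. Same-numbered libraries correlated at -0.53 to 0.42 in their deviations, and 7 of 10 pairs matched their own number best, among them 3 of the 4 for Tcn2-/- IMQ over IMQ, which is a hint from the data. As not every pair exceeded 0.1 and no label ties the numbers, they were not taken to pair the libraries. Sign changed in 3 of 800 gene values, none of them called: Adamts4 for Tcn2-/- IMQ over IMQ with the replicate block (0.0017, adjusted p = 0.999), and with sex as a covariate Mmp25 for IMQ over control (0.53, adjusted p = 0.768) and Timp3 for Tcn2-/- IMQ over control (0.27, adjusted p = 0.972). The causes were not tested. Of 102 further member contrasts, 6 were called under any alternative, all by DESeq2, and 160 of their 2037 values, in 64 contrasts, changed sign, 0 of these called. With 2 of 3 controls and 1 of 9 IMQ-induced libraries female, sex and group are partly confounded. Without both libraries that stood apart they are fully confounded for Tcn2-/- IMQ over control, as the only male control is left out.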
